A study of Mus musculus with 12 samples.

Results

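Tal1 and 9 further genes of the blood and endothelial programme, 10 of the 25239 genes in the count tables, were followed through bulk RNA-seq of mouse heart cells. They comprise the transcription factor genes Tal1, Lmo2, Fli1 and Erg, the endothelial surface genes Pecam1, Cdh5, Kdr and Tek, and the endothelial products Vwf and Aqp1. They were taken by symbol, and Tal1 led to the choice because it stood apart in the first of 2 count tables. The values that chose them are therefore those of Chaf1a cko against Ctrl in the first table, and these are given as a description without a p-value. The comparison in the second table, labelled 3M, was not used for the choice and is tested.

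The study profiled RNA from cultured heart cells labelled cardiomyocytes, in 12 libraries of 4 groups with 3 replicates each. The Chaf1a cko and Chaf1a cko 3M groups came from mice with Myh6-Cre and a loxP-flanked Chaf1a gene (Chaf1a fl/fl), and the Ctrl and Ctrl 3M groups from Chaf1a fl/fl mice without Cre, whose genotype label reads WT. The CHAF1A protein is the big subunit of the histone chaperone CAF-1, which loads histones onto newly copied DNA, and the series title places its loss around birth. The labels give no strain and no age, do not spell out 3M, and put every library in batch 1. All 4 groups carry the floxed allele, and no group carries Cre without it, so an effect of Cre and an effect of the deletion cannot be told apart. The Myh6 promoter drives Cre in cardiomyocytes, whereas the genes described here are known mainly from endothelial and blood cells. Nothing in the labels says that replicates came from separate mice or cultures, so the p-values measure the spread between these libraries.

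Several measurements over the whole series touch the results. Library totals were 15068468 to 20896673 counts in the first set and 10569325 to 16445963 counts in the 3M set. Chaf1a was not lower under either cko label. It had 29.0, 24.5 and 21.9 CPM (read counts scaled to a common library size of 1e6) in Chaf1a cko, against 22.7, 32.3 and 18.8 CPM in Ctrl, and 8.33, 5.58 and 5.53 CPM in Chaf1a cko 3M, against 1.87, 4.73 and 9.74 CPM in Ctrl 3M. The counts cover the whole gene and do not show whether the floxed part was read, so every direction given here is that of the libraries labelled Chaf1a cko. As a check of the cell type label, 12 cardiomyocyte genes summed to 94526 to 95251 CPM in Chaf1a cko and 100551 to 104038 CPM in Ctrl, and to 48178 to 53902 CPM in Chaf1a cko 3M and 34644 to 42765 CPM in Ctrl 3M. Endothelial RNA was present in every library too, and because the libraries are bulk, fewer cells of a type and less RNA per cell cannot be told apart. Genes with no known role in the heart carried reads in the first set. Of 1500 chemoreceptor genes (olfactory, vomeronasal and trace amine-associated receptors), 94.8% to 97.8% had counts in each first-set library, with a 95th percentile of 5.32 CPM. In each 3M library 1.13% to 1.67% of them had counts.

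TAL1 is a basic helix-loop-helix factor that binds E-box DNA as a dimer with an E protein, often in a complex with LMO2, LDB1 and a GATA factor. It is required for the formation of blood, and in endothelium it acts in vessel formation and in the embryonic choice between endocardial and heart muscle fates. FLI1 and ERG are ETS factors that hold the endothelial gene programme in place, and VE-cadherin, PECAM1, VEGFR2 and TIE2 are among the products that mark it.

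The promoters of Tal1 are shown because its transcript carries the difference described first. RefSeq (GRCm38.p6) lists 2 starts on the plus strand of chromosome 4, 1385 bases apart, and each window runs from 250 bases before to 50 after the start. Capitals mark matches to a GATA motif (AGATAA or AGATAG, and likewise TGATAA or TGATAG) or an E-box (CAGNTG), searched on both strands.

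Tal1 promoter, first start, chr4:115056176-115056475: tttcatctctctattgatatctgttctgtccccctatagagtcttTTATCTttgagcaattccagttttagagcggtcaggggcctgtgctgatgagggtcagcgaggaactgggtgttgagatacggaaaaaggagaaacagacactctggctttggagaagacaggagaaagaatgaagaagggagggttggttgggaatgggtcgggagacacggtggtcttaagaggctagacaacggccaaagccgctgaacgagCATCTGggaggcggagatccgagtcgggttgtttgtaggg

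Tal1 promoter, second start, chr4:115057561-115057860: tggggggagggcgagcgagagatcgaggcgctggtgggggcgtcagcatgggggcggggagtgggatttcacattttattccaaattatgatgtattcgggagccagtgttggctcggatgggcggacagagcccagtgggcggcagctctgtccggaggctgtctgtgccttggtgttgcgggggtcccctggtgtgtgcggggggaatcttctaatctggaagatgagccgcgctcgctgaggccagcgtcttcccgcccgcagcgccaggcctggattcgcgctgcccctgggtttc

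The first window holds a GATA match, TTATCT, which begins 205 bases before the start, and an E-box, CATCTG, which begins 10 bases after it. The second window holds neither, and neither window holds an ETS motif (CCGGAAG or CAGGAAG). Such matches are common. Of 32851 mouse promoters of this length, 29.8% hold the GATA motif, 51.4% the E-box and 20.9% the ETS motif. RefSeq windows were at hand for 5 of the 10 genes, with 8 starts in all, of which 3 hold the GATA motif, 4 the E-box and 1 the ETS motif. A match describes the letters and is not evidence of binding.

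Tal1 was the one of the 10 whose level differed by more than 1 log2 unit in the first set. It had 28.0, 26.3 and 25.1 CPM in Chaf1a cko (466, 495 and 509 reads), against 10.4, 7.91 and 9.82 CPM in Ctrl (155, 153 and 208 reads). The groups did not overlap, and the lowest Chaf1a cko library stood above the highest Ctrl library by more than the range within either group. The means were 26.5 ± 1.47 CPM in Chaf1a cko and 9.37 ± 1.29 CPM in Ctrl (SD, n = 3 each), a 2.83-fold higher level (log2 fold change 1.50, SE 0.17, 95% interval 1.13 to 1.87). Ranked by fitted fold change, Tal1 was number 7 of the 13451 genes whose mean CPM exceeded the chemoreceptor 95th percentile, behind Tceal7, Gm12191, Lars2, Rpp14, Hist1h2ao and Ankrd11, and number 76 of all 22965 genes tested. Tal1 was chosen for this rise, so the choice favours a large fold change, and neither the interval nor the rank is a test. Per kilobase of exon, however, the Ctrl level of Tal1 was 2.14 CPM per kb, under the chemoreceptor 95th percentile of 2.62 CPM per kb, while the Chaf1a cko level of 6.04 CPM per kb was above it. With the chemoreceptor median subtracted from each library, the log2 fold change was 1.70.

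**Figure D1:**
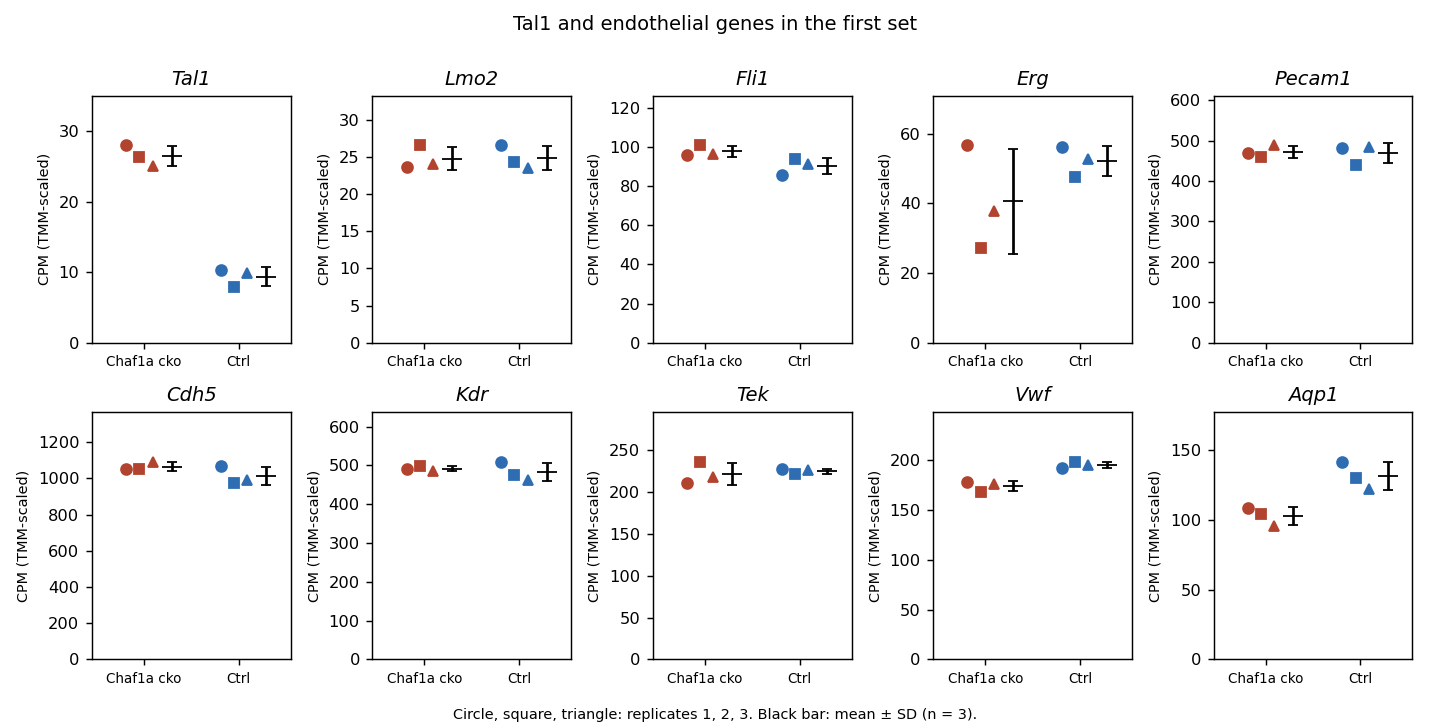
CPM of the 10 genes in the first set, Chaf1a cko left and Ctrl right, with 1 panel and its own linear axis per gene; circle, square and triangle are replicates 1, 2 and 3, and the black bar is the mean ± SD. Tal1 averages 26.5 CPM in Chaf1a cko and 9.37 CPM in Ctrl, and the other 9 genes lie much closer together.

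LMO2, the bridging protein of the TAL1 complex, did not show such a difference. Lmo2 had 23.6, 26.6 and 24.1 CPM in Chaf1a cko, against 26.6, 24.3 and 23.5 CPM in Ctrl, and the groups overlapped almost fully (log2 fold change -0.00, SE 0.14). Fli1 had 96.1, 101 and 96.5 CPM in Chaf1a cko, against 85.7, 93.9 and 91.3 CPM in Ctrl. The 3 Chaf1a cko libraries were the highest, by a small margin (log2 fold change 0.12, SE 0.08). Erg had 56.8, 27.1 and 37.9 CPM in Chaf1a cko, against 56.1, 47.7 and 52.8 CPM in Ctrl. Its Chaf1a cko replicate 1 was the highest of the 6 libraries and replicate 2 the lowest, the widest spread of the 10 genes in this set (log2 fold change -0.36, SE 0.26). Leaving out Chaf1a cko replicate 1 gave -0.69 for Erg, and leaving out replicate 2 gave -0.14.

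The endothelial surface genes overlapped between the labels in the first set. Pecam1, which encodes a junctional adhesion molecule, had 469, 460 and 489 CPM in Chaf1a cko, against 483, 440 and 484 CPM in Ctrl. Cdh5, for VE-cadherin of the adherens junction, had 1052, 1053 and 1093 CPM in Chaf1a cko, against 1070, 977 and 992 CPM in Ctrl. Both genes overlapped between the groups, with log2 fold changes of 0.01 (SE 0.05) for Pecam1 and 0.07 (SE 0.04) for Cdh5. Kdr, for the VEGF receptor VEGFR2, had 492, 499 and 485 CPM in Chaf1a cko, against 510, 475 and 464 CPM in Ctrl. Tek, for the angiopoietin receptor TIE2, had 211, 236 and 218 CPM in Chaf1a cko, against 227, 221 and 226 CPM in Ctrl. These overlapped as well (log2 fold change 0.03, SE 0.04, for Kdr and -0.02, SE 0.06, for Tek), and the 95% intervals of the 4 surface genes all lay between -0.14 and 0.15.

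The 2 endothelial products were lower in Chaf1a cko. Vwf, which encodes von Willebrand factor, the platelet-binding protein stored in endothelial cells and megakaryocytes, had 178, 169 and 177 CPM in Chaf1a cko, against 192, 199 and 195 CPM in Ctrl. Aqp1, for the water channel aquaporin 1 of endothelium and red cells, had 108, 104 and 95.6 CPM in Chaf1a cko, against 142, 130 and 122 CPM in Ctrl. Neither gene overlapped between the groups. The log2 fold change was -0.16 (SE 0.06) for Vwf and -0.36 (SE 0.08) for Aqp1, whose means were 103 ± 6.39 CPM in Chaf1a cko and 131.4 ± 9.73 CPM in Ctrl (SD, n = 3 each).

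Over the 10 genes in the first set, Tal1 and Fli1 were higher in Chaf1a cko without overlap, a pattern shared by 8.33% of the 22965 genes tested, and Vwf and Aqp1 were lower without overlap, as were 7.85%. At the edgeR threshold of an adjusted p under 0.05, 1.18% of all genes tested passed (0.740% higher and 0.435% lower). Since the genes were chosen on this contrast, no such call is given for the 10 genes in this set. Their median log2 fold change was 0.01, beside -0.01 over all genes tested.

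**Figure D2:**
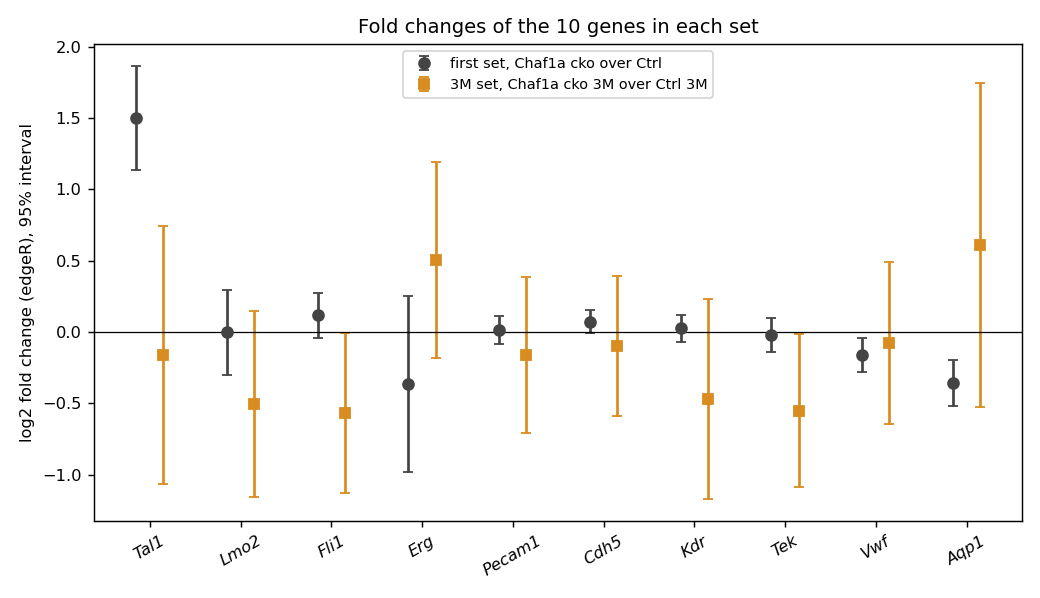
Fitted log2 fold change of each gene, Chaf1a cko over Ctrl in the first set and Chaf1a cko 3M over Ctrl 3M in the 3M set, with 95% intervals. Tal1 lies at 1.50 in the first set, against -0.16 for 3M, and the 3M intervals are wider for each gene.

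Tal1 showed no detectable difference in the 3M set. It had 33.1, 33.7 and 39.8 CPM in Chaf1a cko 3M, against 56.1, 46.1 and 16.9 CPM in Ctrl 3M. The Ctrl 3M libraries enclosed the Chaf1a cko 3M libraries, with replicates 1 and 2 above all of them and replicate 3 below. The means were 35.6 ± 3.70 CPM in Chaf1a cko 3M and 39.7 ± 20.3 CPM in Ctrl 3M (SD, n = 3 each), with a log2 fold change of -0.16 (SE 0.40, edgeR adjusted p = 0.953). The 95% interval was -1.06 to 0.75, and the difference between the sets was not tested. The sign rested on a single library. Without Ctrl 3M replicate 1 the log2 fold change was 0.17, and without Ctrl 3M replicate 3 it was -0.52.

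The other transcription factor genes overlapped between the 3M groups as well. Lmo2 had 68.3, 47.4 and 62.1 CPM in Chaf1a cko 3M, against 117, 56.4 and 79.3 CPM in Ctrl 3M (log2 fold change -0.51, SE 0.29, edgeR adjusted p = 0.762). Fli1 had 121, 107 and 142 CPM in Chaf1a cko 3M, against 244, 163 and 140 CPM in Ctrl 3M (log2 fold change -0.57, SE 0.25, edgeR unadjusted p = 0.0478, adjusted p = 0.712). Both had their highest value in Ctrl 3M replicate 1, and Fli1 overlapped only in Ctrl 3M replicate 3, which lay just below the top Chaf1a cko 3M library. Erg went the other way in sign, with 154, 90.8 and 107 CPM in Chaf1a cko 3M, against 70.1, 117 and 60.2 CPM in Ctrl 3M (log2 fold change 0.51, SE 0.30, edgeR adjusted p = 0.774).

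The surface genes in the 3M set overlapped between the groups and varied most among the Ctrl 3M libraries. Pecam1 had 416, 547 and 554 CPM in Chaf1a cko 3M, against 643, 654 and 398 CPM in Ctrl 3M (log2 fold change -0.16, SE 0.24, edgeR adjusted p = 0.912). Cdh5 had 775, 681 and 927 CPM in Chaf1a cko 3M, against 897, 993 and 664 CPM in Ctrl 3M (log2 fold change -0.10, SE 0.22, edgeR adjusted p = 0.944). For both, as for Tal1, Ctrl 3M replicate 3 was the lowest of all 6 libraries. Kdr had 628, 602 and 466 CPM in Chaf1a cko 3M, against 1167, 688 and 494 CPM in Ctrl 3M (log2 fold change -0.47, SE 0.31, edgeR adjusted p = 0.790). Tek had 338, 278 and 267 CPM in Chaf1a cko 3M, against 558, 322 and 414 CPM in Ctrl 3M (log2 fold change -0.55, SE 0.24, edgeR unadjusted p = 0.0456, adjusted p = 0.712). For both receptors Ctrl 3M replicate 1 was the highest library, and the groups overlapped. Without that library the log2 fold change was -0.07 for Kdr and -0.32 for Tek, and likewise -0.20 for Lmo2 and -0.30 for Fli1. Without Chaf1a cko 3M replicate 1 it was -0.03 for Pecam1.

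The endothelial products overlapped in the 3M set. Vwf had 87.6, 80.6 and 119 CPM in Chaf1a cko 3M, against 75.2, 125 and 103 CPM in Ctrl 3M (log2 fold change -0.08, SE 0.25, edgeR adjusted p = 0.967). Aqp1 had 2130, 2689 and 3022 CPM in Chaf1a cko 3M, against 831, 3082 and 1218 CPM in Ctrl 3M (log2 fold change 0.61, SE 0.48, edgeR adjusted p = 0.830). Its Ctrl 3M replicate 2 stood with the Chaf1a cko 3M libraries, and the other Ctrl 3M libraries lay below them all. Without Ctrl 3M replicate 2 the log2 fold change of Aqp1 was 1.35 (edgeR adjusted p = 0.210).

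None of the 10 genes passed the threshold in the 3M set, where 0.0144% of the 13925 genes tested did (2 genes), and DESeq2 called 78. At an unadjusted p under 0.05, Fli1 and Tek passed in edgeR, 2 of 10, beside 6.93% of all genes tested. All 10 overlapped between the groups, whereas 14.1% of all genes tested did not. The median log2 fold change was -0.16, with 8 of 10 below 0, beside a median of -0.02 over all genes tested. Ctrl 3M replicate 1 was the highest of the 6 libraries for 5 of the 10 genes, against 22.9% of all genes tested, and Ctrl 3M replicate 3 the lowest for 4, against 16.3%. Sums of cell type markers differed by label here. The cardiomyocyte sum given above was higher in Chaf1a cko 3M than in Ctrl 3M without overlap. Of its 12 genes, however, 7 had a positive and 5 a negative log2 fold change, and 0 passed. The macrophage and myeloid sum was lower without overlap, at 319 to 386 CPM in Chaf1a cko 3M and 480 to 649 CPM in Ctrl 3M. Of its 16 genes 3 had a positive and 13 a negative log2 fold change, and 0 passed. The part of these cell types in the values of the 10 genes was not tested. The coefficient of variation within a group had a median of 23.1% (range 10.4% to 70.4%) in the 3M set and 5.17% (range 1.39% to 37.0%) in the first set.

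**Figure D3:**
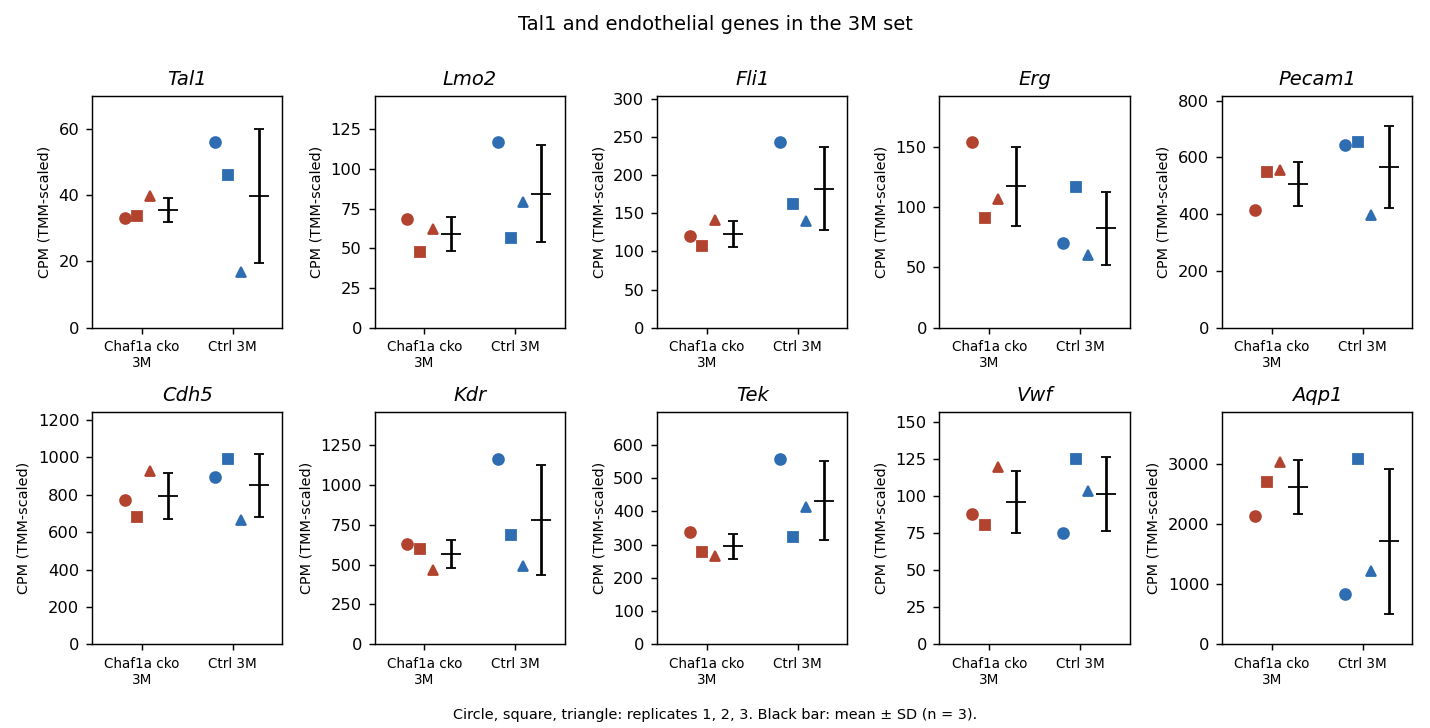
CPM of the 10 genes in the 3M set, Chaf1a cko 3M left and Ctrl 3M right, with 1 panel and its own linear axis per gene; circle, square and triangle are replicates 1, 2 and 3, and the black bar is the mean ± SD. The groups overlap in every panel, and Tal1 spans 33.1 to 39.8 CPM in Chaf1a cko 3M and 16.9 to 56.1 CPM in Ctrl 3M.

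Levels of different genes can be set against each other per kilobase of exon. In the first set Tal1 was the lowest of the 10 under both labels, at 6.04 ± 0.335 CPM per kb in Chaf1a cko and 2.14 ± 0.295 CPM per kb in Ctrl, and it did not overlap with the next gene. Cdh5 was the highest, at 254 ± 5.51 CPM per kb in Chaf1a cko and 241 ± 11.9 CPM per kb in Ctrl. Below it the order in Chaf1a cko was Pecam1, Kdr, Tek, Aqp1, Fli1, Erg, Lmo2 and Vwf, with the levels of Erg and Lmo2, and of Lmo2 and Vwf, within each other's spread. In Ctrl it was Pecam1, Kdr, Aqp1, Tek, Fli1, Erg, Vwf and Lmo2, where Kdr and Aqp1, Aqp1 and Tek, and Vwf and Lmo2 overlapped. Aqp1 led in the 3M set, at 995 ± 172 CPM per kb in Chaf1a cko 3M and 651 ± 458 CPM per kb in Ctrl 3M, and Cdh5 was next, without overlap. Tal1 came last but 1 there, at 8.12 ± 0.844 CPM per kb in Chaf1a cko 3M and 9.07 ± 4.65 CPM per kb in Ctrl 3M, above Vwf, with which it overlapped in Ctrl 3M alone. The order between Cdh5 and Tal1 was Pecam1, Kdr, Tek, Fli1, Erg and Lmo2 in Chaf1a cko 3M, and Tek, Pecam1, Kdr, Fli1, Lmo2 and Erg in Ctrl 3M, where each of these overlapped with the next. In Chaf1a cko 3M the neighbours Tek and Fli1 did not overlap, and the other neighbours in that stretch did. The tables were deposited separately, so levels are compared within a table.

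Tal1 was also set against the endothelial RNA of its own library, using 29 other pan-endothelial genes. Per 1000 counts of those genes there were 6.46, 5.99 and 5.71 Tal1 counts in Chaf1a cko, against 2.37, 1.86 and 2.28 in Ctrl, with means of 6.05 ± 0.377 in Chaf1a cko and 2.17 ± 0.272 in Ctrl (SD, n = 3 each). The first-set groups stood about as far apart on this scale as in CPM. The summed level of the 29 genes, given below, hardly varied in that set. The scale therefore had to repeat the CPM difference and is no separate support for it. The 3M libraries had 4.02, 3.50 and 4.06 in Chaf1a cko 3M, against 4.96, 4.34 and 2.08 in Ctrl 3M, and the groups overlapped. The summed level of the 29 genes was 4336 to 4392 CPM in Chaf1a cko and 4250 to 4373 CPM in Ctrl, and 8252 to 9809 CPM in Chaf1a cko 3M and 8116 to 11300 CPM in Ctrl 3M. In the first set 1 of the 29 rose and 0 fell by the edgeR threshold, with a median log2 fold change of -0.00. The gene that passed was Cd34, a sialomucin of endothelium and blood progenitors, at 243 ± 5.53 CPM in Chaf1a cko and 207 ± 6.27 CPM in Ctrl (SD, n = 3 each, edgeR adjusted p = 0.0410). At an unadjusted edgeR p under 0.05 there were 7 of 29, beside 10.1% of all genes tested. Without overlap 7 of the 29 were higher in Chaf1a cko and 4 lower, beside 8.33% and 7.85% of all genes tested. Of the 29 genes 0 passed in the 3M set, and the median was -0.05. There 3 had an unadjusted edgeR p under 0.05, beside 6.93% of all genes tested.

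**Figure D4:**
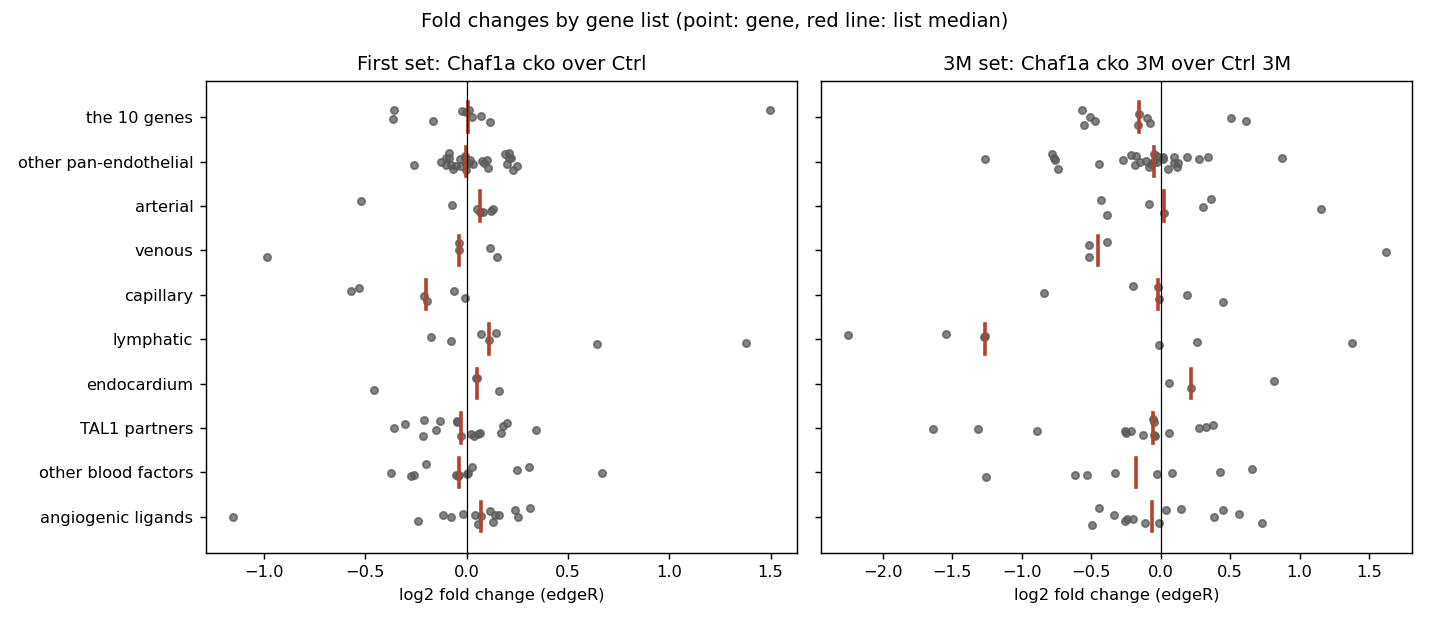
Fitted log2 fold changes for the 10 genes and the other gene lists, first set and 3M set; each point is a gene and the red line is the median of its list. Tal1 is the point at 1.50 in the first set, where the median of the 10 genes is 0.01.

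Other vessel lists held at most 1 call each, to be read beside the 0.740% of all genes tested that rose and the 0.435% that fell in the first set. Of 5 venous genes 1 fell in the first set: Nr2f2, which encodes the venous-fate factor COUP-TFII, had 39.2, 40.7 and 44.2 CPM in Chaf1a cko, against 81.4, 77.0 and 87.4 CPM in Ctrl (log2 fold change -0.98, edgeR adjusted p = 1.13e-05). Of 6 heart capillary genes 1 fell, Cd36, for a fatty acid transporter also made by cardiomyocytes and macrophages (log2 fold change -0.21, edgeR adjusted p = 0.0306), and all 6 had a negative value with a median of -0.20. Of 15 angiogenic ligand and receptor genes 1 rose, Nrp1, for the VEGF and semaphorin co-receptor neuropilin 1 (log2 fold change 0.25, edgeR adjusted p = 0.00728). No arterial gene of 7, lymphatic gene of 7 or endocardial gene of 4 passed. No gene of these lists passed in the 3M set.

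The genes for TAL1's partners and relatives gave no call in either set, with 0 of 17 passing in the first and 0 of 15 tested in the second table, and with median log2 fold changes of -0.03 and -0.06. At an unadjusted edgeR p under 0.05 there were 3 of 17 in the first table, beside 10.1% of all genes tested, and 1 of 15 in the second, beside 6.93%. The 3 in the first table were Id1 (log2 fold change -0.36), Lmo4 (-0.30) and Id3 (-0.22). Each was lower in Chaf1a cko without overlap, as were 7.85% of all genes tested. The E-protein gene Tcf4 had 252, 262 and 257 CPM in Chaf1a cko, against 263, 245 and 244 CPM in Ctrl. A few genes were picked for their role after their values were seen. Gata2, the GATA factor gene of endothelium and early blood, had 107, 102 and 112 CPM in Chaf1a cko, against 108, 106 and 102 CPM in Ctrl. The groups overlapped for both Tcf4 and Gata2. Lyl1, the closest relative of Tal1, had 5.29, 3.40 and 5.03 CPM in Chaf1a cko, against 4.68, 4.96 and 4.35 CPM in Ctrl, under the chemoreceptor 95th percentile of 5.32 CPM in every library. Per kilobase of exon it spanned 1.89 to 2.94 CPM per kb, on both sides of the chemoreceptor 95th percentile of 2.62 CPM per kb. The 3M values of Lyl1 were 27.3, 26.0 and 35.3 CPM in Chaf1a cko 3M, against 33.2, 33.4 and 38.9 CPM in Ctrl 3M. Of the other blood transcription factor genes, 0 of 13 tested passed in the first table and 0 of 8 in the second.

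Tal1 is also made by erythroid, megakaryocyte and mast cells. Of 13 erythroid genes 0 passed in the first set, with 7 positive and 6 negative log2 fold changes. Their summed level was 2359 to 2391 CPM in Chaf1a cko and 1722 to 2297 CPM in Ctrl, without overlap. Within the list Alas2 was higher in Chaf1a cko without overlap (log2 fold change 0.35). The globin gene Hbb-bs was lower without overlap, at 21.8, 12.7 and 34.7 CPM in Chaf1a cko, against 37.1, 35.5 and 609 CPM in Ctrl. Its log2 fold change of -3.30 (SE 1.54, edgeR adjusted p = 0.603) came mainly from Ctrl replicate 3. Hba-a2 ranged from 201 to 978 CPM in Chaf1a cko and from 117 to 914 CPM in Ctrl. A beta globin gene outside the list, Hbb-b2, was picked because its values over the first-set libraries followed those of Tal1, as described below. It had 359.6 ± 5.56 CPM in Chaf1a cko and 267 ± 8.56 CPM in Ctrl (SD, n = 3 each, log2 fold change 0.43). That choice favours a difference between the groups, so no p-value is given. Globin genes share near-identical copies, so their split is uncertain, while the erythroid factor gene Gata1 was at 1.22 to 2.81 CPM in Chaf1a cko and 1.70 to 2.01 CPM in Ctrl, under the chemoreceptor 95th percentile in every library. Megakaryocyte and mast cell genes, 0 of 14 passing, summed to 130.7 to 134.04 CPM in Chaf1a cko and 132 to 151 CPM in Ctrl. The 3M erythroid sum was 462 to 4060 CPM in Chaf1a cko 3M and 455 to 1052 CPM in Ctrl 3M. Macrophage and myeloid genes summed to 113.8 to 132.8 CPM in Chaf1a cko and 130 to 148 CPM in Ctrl, with 0 of 16 passing in either set. Of these 16 genes 13 had a negative log2 fold change in the 3M set, with a median of -0.76, and 6 had an unadjusted edgeR p under 0.05, beside 6.93% of all genes tested. The part of these cells in the Tal1 values was not tested.

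Further markers moved with the label in the first set, where 0.740% of all genes tested rose and 0.435% fell. The 4 Y-linked genes checked summed to 114.6 to 133.9 CPM in Chaf1a cko and 50.02 to 61.1 CPM in Ctrl, and each rose by the edgeR threshold. Xist, expressed from the inactive X chromosome, had 270 to 323 CPM in Chaf1a cko and 290 to 620 CPM in Ctrl. Both were thus read in all 6 libraries, and the label and the share of male RNA cannot be told apart for Tal1. The 3M Y-linked sum was 355 to 394 CPM in Chaf1a cko 3M and 393 to 646 CPM in Ctrl 3M, with Xist at 0 to 3.97 CPM in Chaf1a cko 3M and 0 to 0.296 CPM in Ctrl 3M. Of 10 fibroblast genes 5 fell in the first set, the collagen genes Col1a1 (log2 fold change -0.39), Col1a2 (-0.36) and Col3a1 (-0.23) and the matrix proteoglycan genes Dcn (-0.65) and Lum (-0.73), with a summed level of the list of 2715 to 2740 CPM in Chaf1a cko and 3321 to 3399 CPM in Ctrl. Of the 12 cardiomyocyte genes 1 rose, the myosin light chain gene Myl3 (log2 fold change 0.12), and 5 fell, the contractile genes Myh6 (-0.13), Ttn (-0.12) and Actc1 (-0.09) and the calcium-handling genes Atp2a2 (-0.28) and Ryr2 (-0.24). Of 9 mural genes 1 rose, Cnn1 (log2 fold change 0.75), and 1 fell, Myh11 (-0.41), both smooth muscle genes, and of 11 lymphocyte genes 0 passed. Their part in the Tal1 difference was not tested.

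The genes beside Tal1 were read for the same comparison. Tal1 lies at chr4:115056426-115071755 on the plus strand (GENCODE M21, GRCm38), 13229 bases from Stil, a centriole assembly gene, and 16952 bases from Pdzk1ip1, which encodes a small membrane protein. Stil had 33.7, 38.8 and 32.6 CPM in Chaf1a cko, against 33.9, 25.5 and 30.2 CPM in Ctrl, and the groups overlapped (log2 fold change 0.23, edgeR adjusted p = 0.632). Cmpk1, for a pyrimidine nucleotide kinase, had 30.1, 34.2 and 32.3 CPM in Chaf1a cko, against 35.4, 27.6 and 31.3 CPM in Ctrl (log2 fold change 0.03). Pdzk1ip1 had 1.92, 2.34 and 2.22 CPM in Chaf1a cko, against 1.07, 0.414 and 0.661 CPM in Ctrl. Its groups did not overlap, but every value lies under the chemoreceptor 95th percentile, and the log2 fold change of 1.60 (SE 0.56) did not pass (edgeR adjusted p = 0.278). Among the 3M libraries Pdzk1ip1 was at 0 to 0.577 CPM in Chaf1a cko 3M and 0 to 0.958 CPM in Ctrl 3M and was too low to test. There Stil had 0 to 2.56 CPM in Chaf1a cko 3M and 0 to 2.19 CPM in Ctrl 3M, far below Tal1, while Cyp4x1, Cyp4x1os, Cyp4a29 and Cyp4a12a on the far side were at 0 in all 6 libraries.

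**Figure D5:**
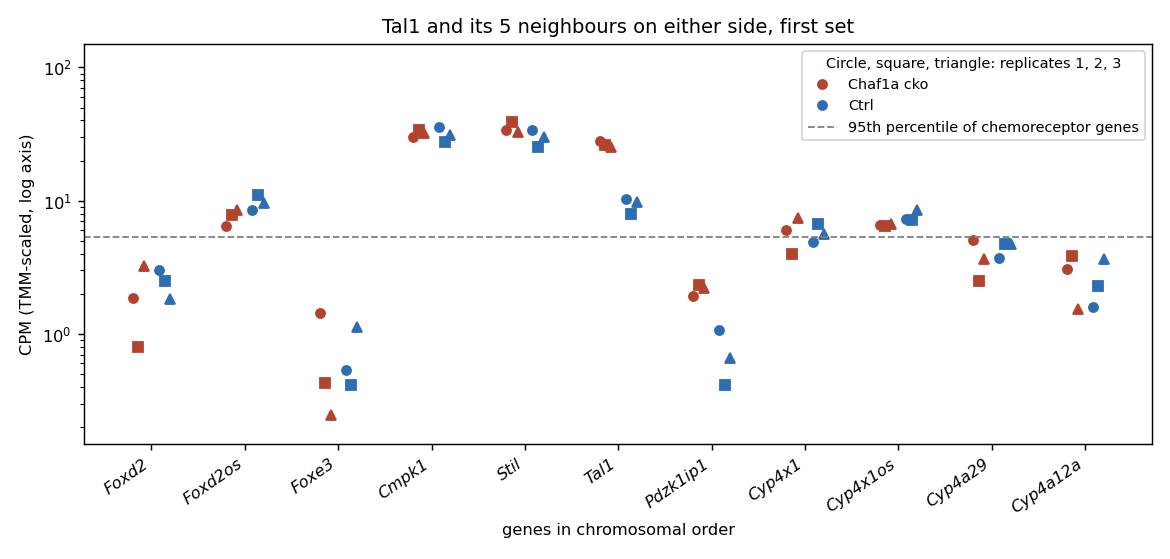
CPM on a log axis of Tal1 and the 5 annotated genes on either side, in chromosomal order, in the first set, Chaf1a cko left and Ctrl right of each gene; circle, square and triangle are replicates 1, 2 and 3, and the dashed line is the chemoreceptor 95th percentile of 5.32 CPM. Tal1 separates by group at 25.1 to 28.0 CPM in Chaf1a cko and 7.91 to 10.4 CPM in Ctrl, while Stil and Cmpk1 overlap.

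By likeness over the 6 first-set libraries, the genes nearest to Tal1 among 13450 compared were Dsp (Pearson r = 0.997), Fam162a (0.997), Hbb-b2 (0.996), Pgk1 (0.993) and Sars (0.993). Dsp encodes the desmosomal protein desmoplakin, Pgk1 a glycolytic kinase, Sars a seryl-tRNA synthetase and Hbb-b2 a beta globin. The 6 libraries fall into 2 separate groups by label, and each r is given as a description over these 6 points. The first-set log2 fold changes of these genes were 0.16, 0.74, 0.43, 0.43 and 0.28 in the same order, each well under that of Tal1. The genes were picked for following Tal1, which separates by label, so a difference in that set follows in part from the choice. No first-set test is read for them. None of the 5 passed in the 3M set.

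The other 9 genes lie apart from Tal1 in the GRCm38 annotation, and all 10 are protein coding. Lmo2 is at chr2:103957986-103981878, Fli1 at chr9:32422204-32542861, Erg at chr16:95359169-95586593, Pecam1 at chr11:106654217-106750628, Cdh5 at chr8:104101625-104144511 and Kdr at chr5:75932827-75978458. Tek is on the chromosome of Tal1, at chr4:94739289-94874976, and Vwf (chr6:125546774-125686679) and Aqp1 (chr6:55336432-55348555) share chromosome 6. Lmo2 and Cdh5 overlap a gene on the opposite strand that the tables also list. That partner was at 0.481 to 1.71 CPM for Lmo2 and 0.870 to 2.98 CPM for Cdh5 in the first set, and no source used here names the strand setting of the counts.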

How the data were processed

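Raw read counts per gene were deposited by the authors in 2 tables with 6 libraries each, from total RNA prepared with a stranded, ribosomal-RNA-depleting kit per the labels' protocols. Reads were handled with FastQC, Trimmomatic and HISAT2 on mm10, per the submitters' processing notes. No source used here names the counting program, its strand setting or its annotation. Each table was fitted alone, since the tables were deposited separately: genes were filtered with filterByExpr, scaled by TMM (trimmed mean of M-values) and tested with edgeR 4.0.16 (limma 3.58.1, R 4.3.3) by the robust quasi-likelihood test, two-sided, cko over Ctrl, with Benjamini-Hochberg adjustment over all genes tested and a threshold of 0.05. DESeq2 1.42.0 served as an alternative. CPM values use TMM-scaled library sizes and a scale of 1e6, and levels per kb use the summed exon length in GENCODE M21. Gene symbols matched RefSeq for 25041 of 25239. Mean chi-square per gene between libraries of a group was at least 9.09, where counting noise alone gives about 1, so no libraries were merged. The genes and lists were chosen with earlier results of these data known. The plan was to name all 10 genes, plus in each other list up to 4 called genes or 2 abundant ones. It added 5 genes on either side of Tal1, and the 5 with the highest Pearson r to it (log2 of CPM plus 0.5). The text departs from this plan in several lists, among them the partner, erythroid, fibroblast and cardiomyocyte lists. Of 205 listed genes 204 were in the tables.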

Additional observations from a re-analysis of the deposited data

How the results depend on the processing

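In the first set 270 genes passed, 490 with the DESeq2 Wald test, 192 with a replicate block and 128 to 201 when a library was left out. In the 3M set 2 genes passed, 78 with the DESeq2 Wald test, 6 with no filter, 0 with a replicate block and 0 to 5 when a library was left out. The log2 fold change of Tal1 in the first set was 1.50 with a replicate block, 1.70 with the chemoreceptor median subtracted, and 1.39 to 1.58 when a library was left out. In the 3M set it was -0.01 with a replicate block and -0.52 to 0.17 when a library was left out, with the sign turned without Ctrl 3M replicate 1 (0.17). Signs also turned in the 3M set for Cdh5 (-0.25 to 0.027 when a library was left out, with 0.027 without Ctrl 3M replicate 2) and Vwf (-0.27 to 0.11, with 0.03 without Chaf1a cko 3M replicate 2 and 0.11 without Ctrl 3M replicate 2). None of the 10 genes passed in the 3M set under any of these settings. Replicate numbers did not pair the libraries: deviations of same-numbered libraries from their group means correlated at -0.0418 to 0.0253 in the first set and -0.0147 to 0.0861 in the 3M set. The cause of these differences was not tested. The spread between libraries was larger in the 3M set, with a common biological coefficient of variation of 0.446, against 0.237 in the first set at the same 3 libraries a group.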
